A study of Mus musculus with 8 samples.

Results

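The colony-stimulating factors and their receptors were followed in mouse bone marrow-derived macrophages (BMDMs) with and without the transcriptional coactivator Ncoa6, before and after an inflammatory stimulus. The 3 ligands Csf1, Csf2 and Csf3 and the 5 receptor genes Csf1r, Csf2ra, Csf2rb, Csf2rb2 and Csf3r were chosen by name, and each of these 8 genes was found once among the 50615 genes of the count table. All 8 were among the 17625 genes with a summed count of at least 10 over the 8 libraries, which were the genes tested. Csf2 reached that sum through its stimulated libraries alone and Csf3 almost so, so these 2 had to differ between conditions to be tested at all, and no p-value is given for their rise.

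Bone marrow from C57BL/6 mice was cultured for 6 days with M-CSF, the product of Csf1, at 20 ng/ml, so every library came from cells kept on this ligand. Ncoa6-KO BMDMs came from Ncoa6 fl/fl LysM CRE mice, in which Cre is expressed from the Lyz2 locus of myeloid cells, and Ncoa6-sufficient BMDMs came from Ncoa6 fl/fl mice without Cre, called WT in the labels. Cells received medium alone, or monosodium urate crystals (MSU, 200 µg/ml, 2 h) after 4 h of LPS at 100 ng/ml. Every group held 2 libraries from different mice (n = 2 per group), and the labels do not say whether the medium and stimulated libraries came from the same animals. No group received LPS or MSU alone, and a Cre-only control was not analysed here, so LPS and MSU cannot be told apart, nor can the deletion and Cre itself.

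M-CSF keeps macrophages alive and dividing through Csf1r, a receptor tyrosine kinase that also binds IL-34. GM-CSF, encoded by Csf2, signals through an alpha chain (Csf2ra) paired with the common beta chain (Csf2rb), which carries JAK2. The mouse has an additional beta chain, Csf2rb2, which pairs with the IL-3 receptor alpha chain. G-CSF, encoded by Csf3, acts through Csf3r, the receptor best known for driving neutrophil production, and macrophages given LPS are a known source of all 3 ligands.

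The libraries held 25281955 to 33673552 reads assigned to genes. Values are normalized counts, scaled by edgeR's TMM factors to the mean effective library size of 29332189. These factors lay between 0.766 and 0.829 in the stimulated libraries and between 1.23 and 1.29 in the medium libraries. Scaling to library totals alone moved the median gene by -0.67 (log2) in the stimulus comparison of Ncoa6-sufficient BMDMs and by -0.63 in that of Ncoa6-KO BMDMs, so stimulus effects are relative to this choice. Ncoa6 itself stood at 48.2% of the sufficient level with medium (log2 fold change -1.05, SE 0.117, adjusted p = 0.00236 in edgeR's quasi-likelihood test) and at 44.1% with LPS + MSU (-1.18, SE 0.124, adjusted p = 0.00189). The medium call was lost without Ncoa6-sufficient medium replicate 1 (-0.996, adjusted p = 0.0578). Reads from exons outside the deleted part remain in such a sum. Lyz2 was lower in Ncoa6-KO BMDMs, with log2 fold changes of -1.01 with medium (adjusted p = 0.0172) and -0.95 with LPS + MSU (adjusted p = 0.0142). The Lyz2 calls were lost without Ncoa6-sufficient replicate 1 (adjusted p = 0.227 with medium, 0.139 with LPS + MSU), without Ncoa6-KO replicate 2 (0.0874 and 0.152) and, with LPS + MSU, without Ncoa6-KO replicate 1 (0.0594).

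The 7 macrophage markers, Lyz2 among them, summed to between 217800 and 513035 normalized counts per library. Their sum was 217800 to 251174 in Ncoa6-KO medium libraries against 341691 to 411796 in Ncoa6-sufficient ones, and 327254 to 352335 against 448326 to 513035 with LPS + MSU. Lyz2, the locus that carries Cre, made most of that gap: without it the other 6 summed to 105806.3 to 123619.0 against 131798.3 to 139698.5 with medium and to 203989.7 to 222950.5 against 230991.1 to 242705.6 with LPS + MSU. The 6 mast cell and basophil markers and the 4 T and NK cell markers had at most 3 counts each in any library, and the 3 B cell markers summed to at most 8.78. In bulk RNA, a change in the share of cells of a type and a change in RNA per cell cannot be told apart.

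On the scale of CPM per kilobase of merged exons, with CPM taken over the effective library size, Csf1r was the most abundant member in every group. Its level in Ncoa6-sufficient medium libraries was 362 ± 21.6 (SD, n = 2), followed by Csf2ra at 82.8 ± 3.04, Csf2rb2 at 57.0 ± 3.91, Csf2rb at 25.9 ± 2.7, Csf3r at 7.12 ± 0.283 and Csf1 at 4.53 ± 0.224. Csf3 stood at 0.0104 and Csf2 at 0, and the libraries of this last pair overlapped. With LPS + MSU the order in Ncoa6-sufficient BMDMs was Csf1r 283 ± 28.8, Csf2ra 149 ± 7.13, Csf1 101.5 ± 6.08, Csf2rb2 56.2 ± 6.79, Csf2rb 36.7 ± 4.04, Csf3r 27.1 ± 1.89, Csf3 7.28 ± 0.384 and Csf2 1.47 ± 0.826. Csf1 thus moved from rank 6 to rank 3, and no neighbours in that order overlapped. The Ncoa6-KO libraries had the same orders, from Csf1r at 305 ± 30.1 to Csf1 at 3.59 ± 0.107 with medium and from 253 ± 7.80 for Csf1r to 2.45 ± 0.159 for Csf2 with LPS + MSU. Csf3r, at 4.57 ± 1.78, overlapped Csf1 in the Ncoa6-KO medium libraries.

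**Figure D1:**
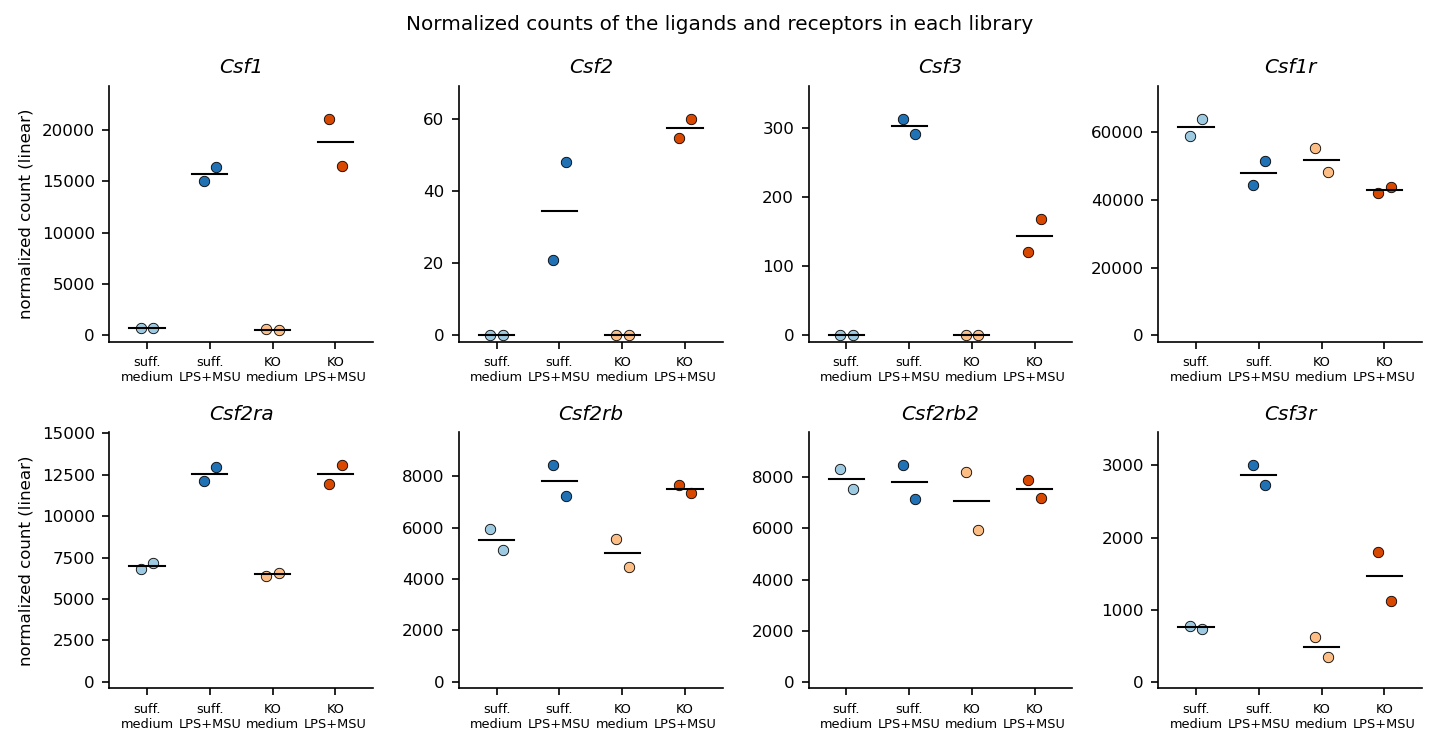
Normalized counts (linear axis from 0, a separate scale for each gene) of the 8 genes in the 4 groups of 2 libraries; points are libraries, horizontal lines are group means, and suff. stands for Ncoa6-sufficient. The 3 ligands were near the floor or low with medium and higher with LPS + MSU, where Csf2 was still at a low level. The Csf3 and Csf3r points of stimulated Ncoa6-KO libraries lay below those of stimulated Ncoa6-sufficient libraries.

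The 3 ligands were higher with LPS + MSU and the receptors took different courses: Csf3r rose most, Csf2ra and Csf2rb rose moderately, Csf2rb2 was not called and Csf1r was slightly lower in Ncoa6-sufficient BMDMs, all relative to TMM scaling, since with library totals alone Csf2rb fell below 0 without a call and Csf2rb2 was called lower. In Ncoa6-sufficient BMDMs, 6 of the 8 members were called higher and 1 lower, where 55.2% of all genes tested were called, 24.7% higher and 30.5% lower. In Ncoa6-KO BMDMs 6 were called higher and none lower, where 53.1% of all genes were called, 25.2% higher and 27.9% lower. These counts include Csf2 and Csf3, whose direction the filter fixed. Of the other 6 members 4 were called higher in each genotype and 1 lower in Ncoa6-sufficient BMDMs. Medium and stimulated libraries did not overlap for 7 members in each genotype, all but Csf2rb2, as for 78.5% and 76.5% of all genes tested. Csf2 and Csf3 are again among these 7 through the filter, and of the other 6 members only Csf2rb2 overlapped. The members' median log2 fold change was 1.38 without and 1.27 with the knockout, beside -0.12 and -0.07 over all genes tested. This median includes Csf2 and Csf3, whose direction the filter fixed. Placing Csf2 at its lower bound and Csf3 at its ratio of counts could not move it, since both stayed in the upper part, so this is no check on it. With both left out the median falls between Csf2rb and Csf2ra. These stood at 0.50 and 0.84 without and at 0.58 and 0.95 with the knockout. The other 6 members ranged from -0.36 to 4.48 without and from -0.27 to 5.08 with the knockout. With library totals alone the members split into 4 higher and 2 lower without and 5 higher and 2 lower with the knockout, while over all genes the split in Ncoa6-sufficient BMDMs moved from 4362 higher and 5375 lower to 2498 higher and 9653 lower. In Ncoa6-KO BMDMs it moved from 4446 and 4913 to 2540 and 9313, and with DESeq2's size factors the split in Ncoa6-sufficient BMDMs was 4973 and 4730. The stimulus comparisons of the 2 genotypes share no libraries.

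**Figure D2:**
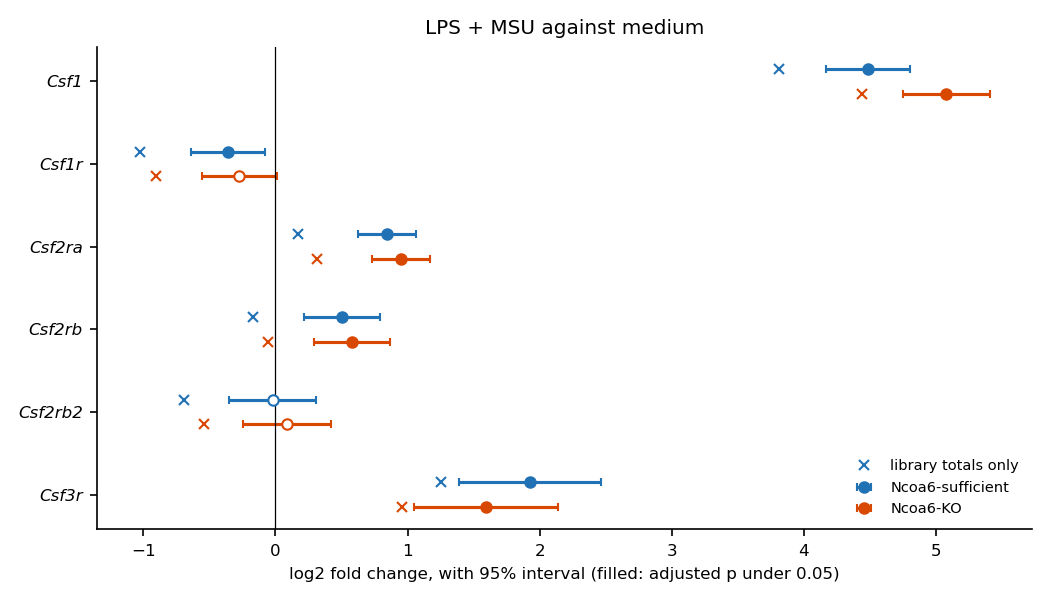
Log2 fold change of LPS + MSU over medium with its 95% interval for the 6 members whose medium counts allow a fitted fold, in Ncoa6-sufficient (blue) and Ncoa6-KO (orange) BMDMs; filled circles passed adjusted p under 0.05 and crosses give the value scaled to library totals alone. Csf1 and Csf3r stayed above 0 on both scalings, whereas Csf2rb lay above 0 with TMM scaling and below 0 with library totals alone.

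Csf1, the M-CSF gene (ENSMUSG00000014599; GRCm38 chr3:107741048-107760469, minus strand, 7 annotated transcripts), rose steeply in both genotypes. Ncoa6-sufficient libraries held 678 and 727 normalized counts with medium and 15051 and 16383 with LPS + MSU. Ncoa6-KO libraries held 568 and 544 with medium and 21103 and 16521 with LPS + MSU. Both stimulated groups lay far above both medium groups. The rise was 22.4-fold in Ncoa6-sufficient (log2 4.48, SE 0.144, adjusted p = 1.21e-09) and 33.8-fold in Ncoa6-KO BMDMs (log2 5.08, SE 0.148, adjusted p = 6.36e-10). The cells had M-CSF protein added to the medium throughout, and these values are of the cells' own transcript.

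LPS is best known for activating NF-kB. The 250 bases upstream of the Csf1 start are shown for that reason, beside those of Csf2ra, which also rose, and Csf2rb2, which was not called. They were read from RefSeq's promoter windows (build GRCm38.p6). Windows of 5 of the 8 members were searched, those of Csf1, Csf2, Csf2ra, Csf2rb2 and Csf3r. No window was available for Csf3 and Csf2rb, and Csf1r was left out of the search. RefSeq's start was the annotated one for Csf1 and Csf2rb2. For Csf2ra the last 11 bases of the window lie inside the annotated gene, and for Csf3r the last 109. For Csf2 the RefSeq start lies 232 bases upstream of the annotated one, so the bases next to the annotated start were not searched. The windows are chr3:107760470-107760719 (minus strand), chr19:61228419-61228668 (minus strand) and chr15:78305722-78305971 (minus strand), written 5′ to 3′. Capitals mark matches, on either strand, to the NF-kB pattern (GGGA, 4 bases of any kind, CC) in Csf1 and to the PU.1 pattern GAGGAAG in the other two.
Csf1: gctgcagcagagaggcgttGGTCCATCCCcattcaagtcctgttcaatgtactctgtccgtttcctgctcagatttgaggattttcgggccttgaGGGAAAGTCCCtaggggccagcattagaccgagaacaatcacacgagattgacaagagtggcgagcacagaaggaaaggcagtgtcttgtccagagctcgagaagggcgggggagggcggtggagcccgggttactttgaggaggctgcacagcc
Csf2ra: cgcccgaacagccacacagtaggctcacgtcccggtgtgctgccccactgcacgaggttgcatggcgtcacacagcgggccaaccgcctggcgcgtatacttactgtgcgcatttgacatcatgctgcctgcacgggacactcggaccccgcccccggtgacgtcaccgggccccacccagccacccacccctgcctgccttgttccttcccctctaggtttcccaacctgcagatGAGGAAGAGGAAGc
Csf2rb2: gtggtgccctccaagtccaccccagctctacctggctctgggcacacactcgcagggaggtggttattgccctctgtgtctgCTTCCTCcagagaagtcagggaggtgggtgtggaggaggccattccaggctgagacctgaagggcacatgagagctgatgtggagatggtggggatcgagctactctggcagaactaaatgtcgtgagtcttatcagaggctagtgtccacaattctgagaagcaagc

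The NF-kB pattern occurred 3 times upstream of Csf1. The matches began 231, 155 and 154 bases before the start, the last 2 being the same bases read on the plus and minus strands, shifted by 1. It was present in 17.6% of the 32851 RefSeq windows of that length, so a match is common. The PU.1 pattern, of a factor that macrophage receptor genes use, began 14 and 8 bases before the RefSeq start of Csf2ra in a pair that shares 1 base, so that the first begins 3 bases before the annotated start and runs into the gene, and the second lies within it. In Csf2rb2 it began 168 bases before the start on the opposite strand. It was present in 10.6% of all windows. The Csf3r window held both patterns, 129 and 86 bases before the RefSeq start, and is not printed because so much of it lies inside the annotated gene. The C/EBP pattern (TTGC, 2 bases of any kind, AA, in 9.56% of windows), the CK-1 pattern (GAG, 1 base of any kind, TTCCAC, in 0.201%), the AP-1 pattern TGANTCA (6.75%) and the TATA pattern TATAAA (12.4%) had no match in the windows of Csf1, Csf2ra, Csf2rb2 and Csf3r. In the Csf2 window the only match was to the C/EBP pattern, 145 bases before the RefSeq start and 377 before the annotated one. That window held no NF-kB, PU.1, CK-1, AP-1 or TATA match, but it leaves out the bases next to the annotated start. These are matches of letters only, and binding was not measured.

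Csf2, the GM-CSF gene (ENSMUSG00000018916; chr11:54247271-54249667, minus strand), had no count in any of the 4 medium libraries. With LPS + MSU it had 15 and 35 counts in Ncoa6-sufficient libraries (20.8 and 48.2 normalized) and 42 and 43 in Ncoa6-KO libraries (54.9 and 60.2 normalized). It therefore appeared in all 4 stimulated libraries, at a low level. Against a floor of 3 counts per library in the medium groups, the stimulated mean was at least 13.4-fold higher in the former and at least 21.8-fold higher in the latter. The exons of an antisense gene, Gm12223, overlap those of Csf2. The library kit keeps strand, but the strand setting of the counting is not given in the sources used here.

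Csf3, the G-CSF gene (ENSMUSG00000038067; chr11:98701263-98703629, plus strand), went from the floor to a clear signal. Its medium counts were 0 and 1 in Ncoa6-sufficient and 1 and 0 in Ncoa6-KO libraries. With LPS + MSU they were 226 and 211 in Ncoa6-sufficient (313 and 291 normalized) and 92 and 120 in Ncoa6-KO libraries (120 and 168 normalized). All 4 stimulated libraries stood above all 4 medium libraries, and the Ncoa6-KO pair below the Ncoa6-sufficient pair. Over the summed counts the ratio of LPS + MSU to medium was 753 in Ncoa6-sufficient BMDMs (95% interval 134 to 29808) and 369 in Ncoa6-KO BMDMs (65.6 to 14650), intervals that cover counting error only.

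Csf1r, the M-CSF receptor (ENSMUSG00000024621; chr18:61100598-61132149, plus strand), was abundant everywhere. Ncoa6-sufficient libraries held 58788 and 63965 normalized counts with medium and 44492 and 51396 with LPS + MSU. Ncoa6-KO libraries held 55316 and 48099 with medium and 41875 and 43743 with LPS + MSU. Within each genotype the stimulated libraries lay below the medium ones. The fall was by 0.36 on the log2 scale in Ncoa6-sufficient BMDMs (SE 0.127, adjusted p = 0.0336), close to the threshold. In Ncoa6-KO BMDMs the log2 fold change was -0.27 (SE 0.127, adjusted p = 0.0947), and it passed with no filter on low counts (-0.30, adjusted p = 0.0435) but not when any 1 library was left out. The Ncoa6-sufficient call was lost with DESeq2's size factors in edgeR (-0.24, adjusted p = 0.127), with DESeq2 (-0.24, 0.068) and with only the 4 libraries compared (-0.32, 0.0638). It was also lost without Ncoa6-sufficient medium replicate 1 (-0.41, 0.0578) or 2 (-0.29, 0.165), Ncoa6-sufficient LPS + MSU replicate 1 (-0.21, 0.3) or 2 (-0.42, 0.0508) and Ncoa6-KO LPS + MSU replicate 1 (-0.31, 0.0845) or 2 (-0.31, 0.0835). With library totals alone the values were -1.03 (adjusted p = 2.07e-05) and -0.91 (adjusted p = 6.08e-05). Its exons overlap those of Hmgxb3 on the opposite strand.

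Csf2ra, the alpha chain of the GM-CSF receptor (ENSMUSG00000059326; chr19:61223957-61228429, minus strand), rose evenly in both genotypes. Ncoa6-sufficient libraries held 6792 and 7154 normalized counts with medium and 12093 and 12943 with LPS + MSU. Ncoa6-KO libraries held 6381 and 6580 with medium and 11958 and 13087 with LPS + MSU. The medium and stimulated libraries did not overlap. The rise was 1.80-fold (log2 0.84, SE 0.0996, adjusted p = 2.35e-05) and 1.93-fold (log2 0.95, SE 0.0998, adjusted p = 9.88e-06). With library totals alone it was 0.17 (adjusted p = 0.155) and 0.32 (adjusted p = 0.0175).

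The 2 beta chains lie side by side on chromosome 15, Csf2rb at chr15:78325752-78353847 on the plus strand (ENSMUSG00000071713) and Csf2rb2 at chr15:78282507-78305721 on the minus strand (ENSMUSG00000071714). The longest annotated coding sequences of the pair were 95.2% identical over 2628 aligned bases. The first 90 coding bases are shown because reads of 100 bases must be divided between such sequences. They differ at the 3 bases in capitals (GENCODE transcripts on GRCm38).
Csf2rb: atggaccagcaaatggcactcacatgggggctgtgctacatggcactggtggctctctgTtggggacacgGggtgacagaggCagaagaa
Csf2rb2: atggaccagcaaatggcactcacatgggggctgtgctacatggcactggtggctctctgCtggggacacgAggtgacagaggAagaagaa

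Of all 100-base stretches in the annotated transcripts, 334 were the same in both genes, which is 4.63% of those of Csf2rb and 6.82% of those of Csf2rb2. The split between the pair is therefore an estimate, and the sum of the 2 genes is given beside it. Csf2rb had 5937 and 5123 normalized counts with medium and 8441 and 7222 with LPS + MSU in Ncoa6-sufficient libraries. In Ncoa6-KO libraries it had 5559 and 4486 with medium and 7664 and 7344 with LPS + MSU. Stimulated libraries lay above medium libraries within each genotype. The rise was 0.50 (SE 0.130, adjusted p = 0.00645) and 0.58 (SE 0.130, adjusted p = 0.00287) on the log2 scale with TMM scaling, and turned to -0.17 (adjusted p = 0.218) and -0.05 (adjusted p = 0.701) with library totals alone. Without Ncoa6-sufficient medium replicate 2 the first value was 0.40 (adjusted p = 0.0655).

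Csf2rb2 had 8313 and 7545 normalized counts with medium and 8476 and 7141 with LPS + MSU in Ncoa6-sufficient libraries. In Ncoa6-KO libraries it had 8220 and 5947 with medium and 7880 and 7180 with LPS + MSU. The conditions overlapped in both genotypes. The log2 fold changes were -0.02 (95% interval -0.35 to 0.31, adjusted p = 0.915) and 0.09 (-0.24 to 0.42, adjusted p = 0.653), and with library totals alone Csf2rb2 was lower, at -0.70 (adjusted p = 0.000826) and -0.54 (adjusted p = 0.0044). Summed, the pair changed by 0.22 (adjusted p = 0.227) and 0.31 (adjusted p = 0.0905).

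The ratio within the pair does not depend on the scaling. Csf2rb2 took 58.3% and 59.6% of the pair's counts in Ncoa6-sufficient medium libraries and 50.1% and 49.7% in stimulated ones. In Ncoa6-KO libraries it took 59.7% and 57.0% with medium and 50.7% and 49.4% with LPS + MSU. The 4 medium libraries all lay above the 4 stimulated libraries. The 2 genotypes overlapped with medium and with LPS + MSU.

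**Figure D3:**
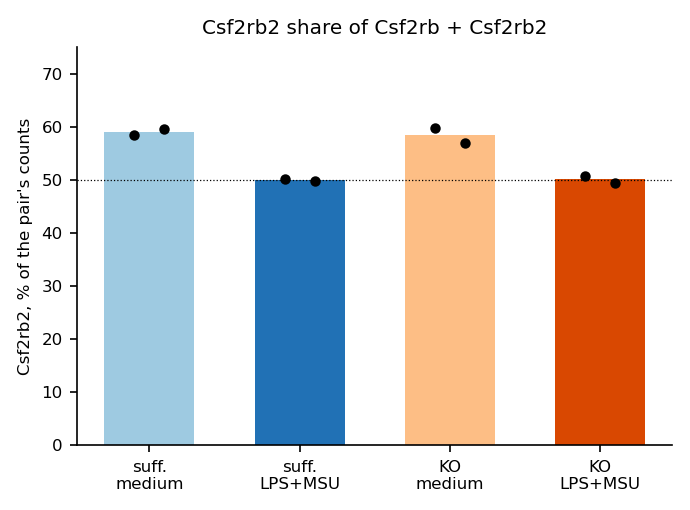
Percent of the summed Csf2rb and Csf2rb2 counts that came from Csf2rb2 (axis from 0); bars are means of 2 libraries, points are libraries, the dotted line marks 50% and suff. stands for Ncoa6-sufficient. The medium libraries lay between 57.0% and 59.7% and the stimulated ones between 49.4% and 50.7%.

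Csf3r, the G-CSF receptor (ENSMUSG00000028859; chr4:126024550-126044440, plus strand), was the receptor that rose most. Ncoa6-sufficient libraries held 775 and 733 normalized counts with medium and 3006 and 2724 with LPS + MSU. Ncoa6-KO libraries held 617 and 350 with medium and 1806 and 1125 with LPS + MSU. The stimulated libraries exceeded the medium ones within and across genotypes. The rise was 3.80-fold in Ncoa6-sufficient (log2 1.93, SE 0.243, adjusted p = 4e-05) and 3.01-fold in Ncoa6-KO BMDMs (log2 1.59, SE 0.247, adjusted p = 0.000219). With library totals alone it was 1.25 (adjusted p = 0.000425) and 0.96 (adjusted p = 0.0034) on the log2 scale. Csf3r also marks neutrophils, whose 8 markers summed to 439 to 510 normalized counts in medium libraries and to 752 to 991 in stimulated ones. Of these markers 7 were tested and 4 were called higher with LPS + MSU in each genotype, where 24.7% and 25.2% of all genes were. None was called in either knockout comparison, where 1.88% of all genes were called with medium and 3.59% with LPS + MSU. Ly6g, which defines mouse neutrophils, had at most 1 count in any library. The part of neutrophils in the Csf3r rise was not tested.

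Between the genotypes only Csf3 under LPS + MSU passed the threshold, lower in Ncoa6-KO BMDMs, and Csf3r was lower on average in both conditions without a call. The other differences were not resolved with 2 libraries per group. With medium alone no member was called, where 1.88% of all genes tested were called, 0.573% higher and 1.3% lower. With LPS + MSU 1 of 8 was called, Csf3, where 3.59% of all genes were called, 1.96% higher and 1.63% lower. The members' median was -0.15 with medium and -0.06 with LPS + MSU, beside -0.03 and 0.00 over all genes tested. The stimulus and knockout comparisons share libraries, so their values are given side by side only.

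Csf3 in stimulated Ncoa6-KO BMDMs stood at 47.7% of the Ncoa6-sufficient level (120 and 168 against 313 and 291 normalized counts). The log2 fold change was -1.07 (SE 0.227, 95% interval -1.57 to -0.57, adjusted p = 0.0304). Its direction held in all 17 alternatives, between -1.35 and -0.86, and 12 of them kept the call. Of these 12, 4 left out a medium library, which is not among the libraries compared. The block within each genotype, which compares only the libraries numbered 1, is also among the 12. The call was lost with only the 4 libraries compared (adjusted p = 0.0621), without Ncoa6-sufficient LPS + MSU replicate 1 (0.229) or 2 (0.0901), and without Ncoa6-KO LPS + MSU replicate 1 (0.132) or 2 (0.0983). With medium the gene was at its floor in both genotypes and no fold is given.

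Csf3r stood at 64.2% of the Ncoa6-sufficient level with medium (617 and 350 against 775 and 733 normalized counts) and at 51.1% with LPS + MSU (1806 and 1125 against 3006 and 2724). The genotypes did not overlap in either condition, as for 43.1% and 47.4% of all genes tested. The log2 fold changes were -0.63 (SE 0.245, 95% interval -1.17 to -0.09, adjusted p = 0.286) and -0.97 (SE 0.237, -1.49 to -0.44, adjusted p = 0.0525), neither past the threshold. With LPS + MSU and no filter on low counts the adjusted p was 3.91e-15 in edgeR at the same log2 fold change, -0.97. In that setting calls over all genes rose from 632 to 1611, so this small p does not mark a larger change. With LPS + MSU the gene also passed with DESeq2 (-1.0, adjusted p = 0.000869) and with DESeq2's size factors in edgeR (-1.0, 0.0484). It also passed without Ncoa6-KO medium replicate 1 (0.0152) or 2 (0.0131) and without Ncoa6-KO LPS + MSU replicate 1 (-1.37, 0.0292). Without Ncoa6-KO LPS + MSU replicate 2 the value was -0.67 (adjusted p = 0.337), so the size rests on how far apart those 2 libraries lie. With medium it passed without Ncoa6-KO replicate 1 (-1.11, adjusted p = 0.0445) and with no filter (-0.64, 4.52e-06).

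**Figure D4:**
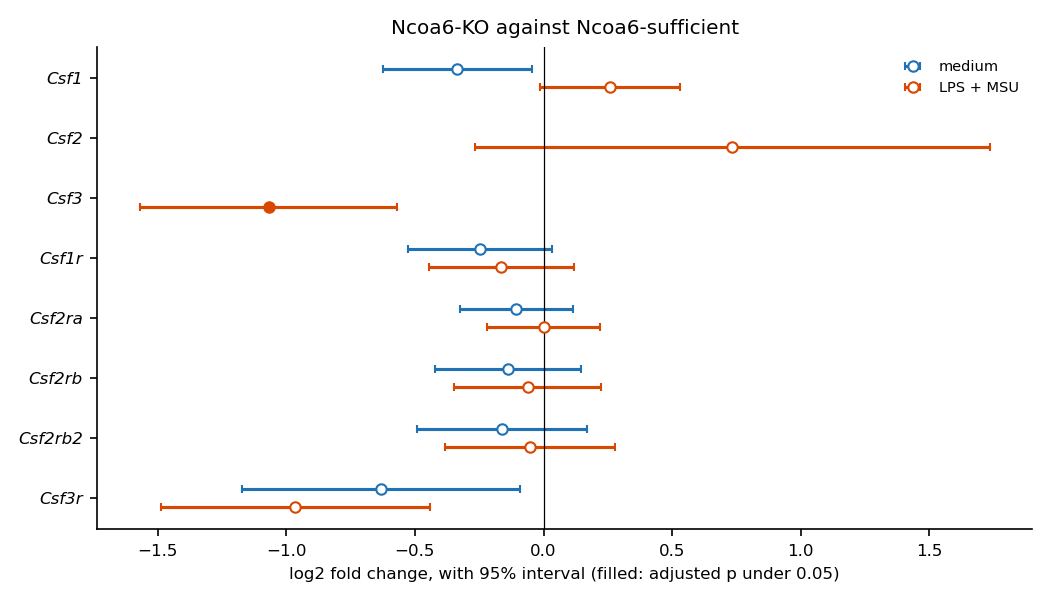
Log2 fold change of Ncoa6-KO over Ncoa6-sufficient BMDMs with its 95% interval for each member with medium (blue) and LPS + MSU (orange); the filled circle passed adjusted p under 0.05. Csf3 with LPS + MSU, at -1.07, was the only value past the threshold. The Csf3r intervals in both conditions and the Csf1 interval with medium also lay below 0 before adjustment.

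Csf1 had 568 and 544 normalized counts in Ncoa6-KO against 678 and 727 in Ncoa6-sufficient medium libraries, and 21103 and 16521 against 15051 and 16383 with LPS + MSU. The Ncoa6-KO libraries were thus the lower pair with medium and the higher pair with LPS + MSU. Neither difference passed (-0.34, SE 0.131, adjusted p = 0.289, and 0.26, SE 0.123, adjusted p = 0.312). The difference between the 2, the interaction, was 0.59 (SE 0.180, adjusted p = 0.598 in edgeR). It passed with no filter on low counts (0.60, adjusted p = 0.0496).

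Csf2 with LPS + MSU had 42 and 43 counts in Ncoa6-KO against 15 and 35 in Ncoa6-sufficient libraries (log2 0.73, SE 0.453, 95% interval -0.27 to 1.73, adjusted p = 0.465). The groups did not overlap, but the gap between the 2 Ncoa6-sufficient libraries was wider than the gap from the higher of them to the Ncoa6-KO pair. A change of this size was not resolved at such counts.

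For the M-CSF and GM-CSF receptors the intervals were narrower. With medium the knockout values were -0.25 for Csf1r (95% interval -0.53 to 0.03), -0.11 for Csf2ra (-0.32 to 0.11), -0.14 for Csf2rb (-0.42 to 0.15) and -0.16 for Csf2rb2 (-0.49 to 0.17). With LPS + MSU they were -0.16 for Csf1r (-0.44 to 0.12), 0.00 for Csf2ra (-0.22 to 0.22), -0.06 for Csf2rb (-0.35 to 0.22) and -0.05 for Csf2rb2 (-0.38 to 0.28). Adjusted p ranged from 0.469 to 1. No interval reached a log2 change of 1 in either direction, and smaller changes within them cannot be told from none.

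No member passed the test of whether the knockout effect differed between conditions, and edgeR, with no replicate block, called none of the 17625 genes. There, 1045 genes had an unadjusted p under 0.05 and the smallest adjusted p was 0.163. DESeq2 called 43 genes and limma-voom none. In edgeR 269 of 24645 genes passed with no filter on low counts, 16 without Ncoa6-KO medium replicate 1 and 1 without Ncoa6-sufficient LPS + MSU replicate 2. For Csf3r the interaction was -0.33 (SE 0.340, adjusted p = 0.941), and for Csf2 and Csf3 it is not given because their medium groups were at the floor.

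**Figure D5:**
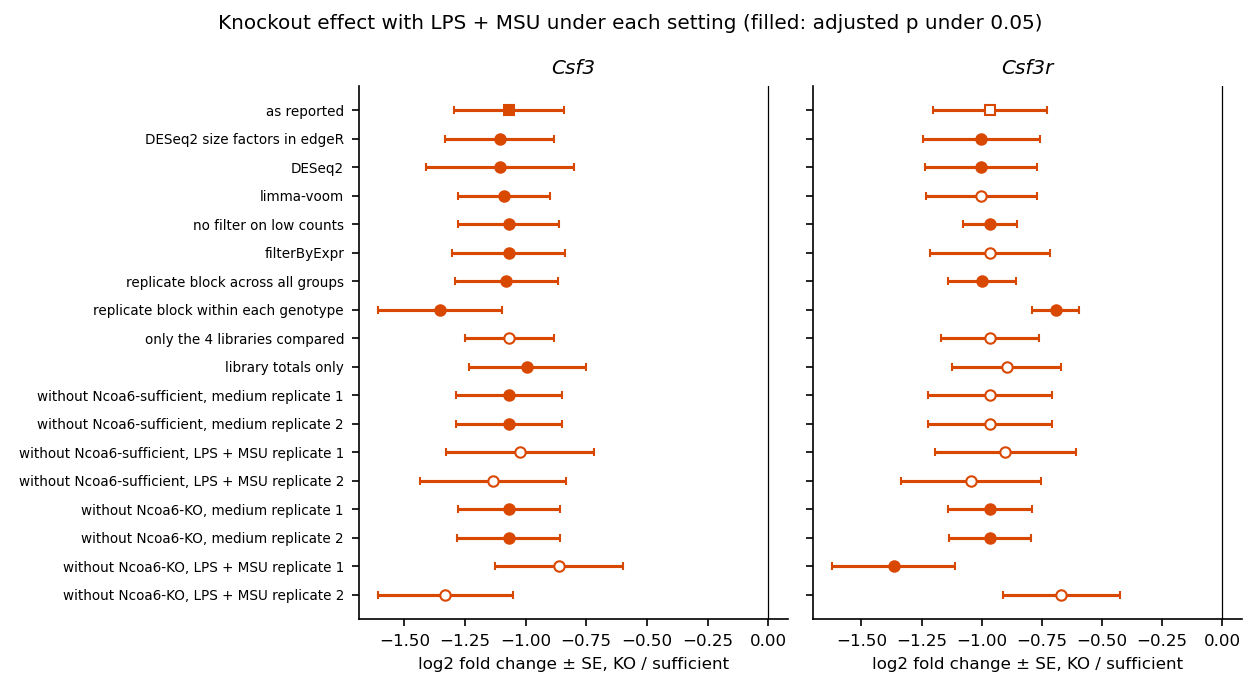
Log2 fold change ± SE of Ncoa6-KO over Ncoa6-sufficient BMDMs with LPS + MSU for Csf3 and Csf3r under each processing setting; squares are the values as reported, circles the 17 alternatives, and filled symbols passed adjusted p under 0.05. All values lay below 0, and 12 alternatives for Csf3 and 8 for Csf3r passed. Both counts include the block within each genotype and fits that left out a medium library, which is not among those compared.

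Of 10 other ligands and receptors that share these pathways, 8 were tested. None was called in a knockout comparison, where 1.88% of all genes were called with medium and 3.59% with LPS + MSU. Of these 8, Il34, Il5, Il5ra and Flt3 reached the summed count of 10 through their stimulated libraries and had to be higher there, so their calls are not counted. Of the other 4, 1 was called higher and 1 lower with LPS + MSU in each genotype, where 55.2% and 53.1% of all genes were called. Il34, the other ligand of Csf1r, had counts of 0 and 1 with medium and 13 and 5 with LPS + MSU in Ncoa6-sufficient libraries, and 0 and 2 against 10 and 6 in Ncoa6-KO libraries. Its ratio of LPS + MSU to medium was 31.0 (95% counting interval 4.90 to 1292) and 13.9 (3.28 to 125). Il3, a ligand of both beta chains, had no count in any library. Il3ra, its alpha chain, rose by 1.05 (SE 0.158, adjusted p = 0.000165) and 1.02 (SE 0.158, adjusted p = 0.000221) on the log2 scale. Kit, the receptor tyrosine kinase for stem cell factor and a relative of Csf1r, fell by 3.22 on the log2 scale (adjusted p = 1.68e-05), from 278 and 342 to 20.8 and 45.4 normalized counts in Ncoa6-sufficient libraries. In Ncoa6-KO libraries it went from 590 and 319 to 68.0 and 69.95 (-2.72, adjusted p = 2.43e-05).

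Among 30 genes of signalling and feedback downstream of these receptors, 20 were called higher and 6 lower with LPS + MSU in each genotype, where 24.7% of all genes were called higher and 30.5% lower without and 25.2% and 27.9% with the knockout. The list had a median log2 fold change of 0.79 without and 0.84 with the knockout, beside -0.12 and -0.07 over all genes tested. Socs3, which blocks cytokine receptors including Csf3r, rose from 62.3 and 75.7 to 17732 and 13214 normalized counts in Ncoa6-sufficient libraries (log2 7.81, SE 0.273, adjusted p = 1.87e-09) and by 7.60 in Ncoa6-KO BMDMs. Socs1, an inhibitor of JAK kinases, rose by 5.43 and 5.55, and Jak2, the kinase held by the beta chain, by 4.40 and 4.44. These 3 rises were past the threshold in every alternative.

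In the knockout comparisons 1 of the 30 was called lower with medium, and 2 lower and 1 higher with LPS + MSU, where 1.3% of all genes were called lower with medium, and 1.63% lower and 1.96% higher with LPS + MSU. Ptpn6, the phosphatase SHP-1 that restrains Csf1r and beta chain signalling, had 5573 and 5147 normalized counts in Ncoa6-KO against 8289 and 7856 in Ncoa6-sufficient medium libraries (log2 -0.59, SE 0.116, adjusted p = 0.0317), and -0.48 (adjusted p = 0.0498) with LPS + MSU. Pik3cd, a PI3K catalytic subunit, was lower with LPS + MSU (-0.87, SE 0.147, adjusted p = 0.0127) and Src was higher (0.67, SE 0.136, adjusted p = 0.0258).
Each of these calls was lost without some library. With medium, Ptpn6 lost its call without any 1 of the 4 medium libraries or of the 2 Ncoa6-sufficient LPS + MSU libraries (adjusted p = 0.0505 to 0.33). With LPS + MSU, Pik3cd lost its call without Ncoa6-sufficient replicate 1 (0.122) or Ncoa6-KO replicate 2 (0.107). Src lost it without any 1 of the 4 stimulated libraries (0.0657 to 0.227), and Ptpn6 without either Ncoa6-sufficient medium library, either Ncoa6-sufficient LPS + MSU library or Ncoa6-KO LPS + MSU replicate 2 (0.0859 to 0.358). With only the 4 libraries compared, Pik3cd (0.0701) and Ptpn6 (0.133) lost it too, and Ptpn6 also with filterByExpr (0.0503) and with library totals alone (0.0593).

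Of 5 genes that govern shedding of membrane-bound Csf1 and Csf1r, 3 were called higher and 1 lower with LPS + MSU in Ncoa6-sufficient BMDMs, and 2 higher and 1 lower in Ncoa6-KO BMDMs, where 55.2% and 53.1% of all genes were called. Adam17, the protease that releases both proteins from the cell surface, rose by 1.69 (SE 0.111, adjusted p = 2e-07) and 1.85 (SE 0.112, adjusted p = 1.04e-07), and Rhbdf2, the partner that brings it to the surface in myeloid cells, by 3.17 and 3.07. Timp3, an inhibitor of Adam17, had 6.75 and 11.2 normalized counts with medium and 56.8 and 46.8 with LPS + MSU in Ncoa6-sufficient libraries (2.53, SE 0.476, adjusted p = 0.000833). In Ncoa6-KO libraries it had 5.56 and 13.2 with medium and 9.15 and 15.4 with LPS + MSU (0.42, adjusted p = 0.562). The stimulated genotypes differed by -2.07 (SE 0.492, adjusted p = 0.0453). This call was lost without any 1 of the 4 stimulated libraries (adjusted p = 0.0954 to 0.264) or either Ncoa6-sufficient medium library (0.07 and 0.0712), as with limma-voom (0.0516), library totals alone (0.0523) and only the 4 libraries compared (0.0701). Timp3 is also made by stromal cells, whose 5 markers summed to 203 and 701 normalized counts in stimulated Ncoa6-KO libraries and to 833 and 771 in Ncoa6-sufficient ones. The part of stromal cells was not tested.

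Among 9 transcription factors known to act on Csf1r, 7 were called higher and 2 lower with LPS + MSU in Ncoa6-sufficient BMDMs, and 6 higher and 2 lower in Ncoa6-KO BMDMs, where 24.7% and 25.2% of all genes were called higher and 30.5% and 27.9% lower. Ets2 rose by 2.90 (SE 0.140, adjusted p = 1.77e-08) and 2.75 (SE 0.139, adjusted p = 2.63e-08), and Mitf by 1.76 and 1.75. Cebpa, a factor of early myeloid development, fell by 6.05 in Ncoa6-sufficient (SE 0.226, adjusted p = 3.01e-09) and in Ncoa6-KO BMDMs, at -4.29 (SE 0.185, adjusted p = 8.45e-09). Stimulated libraries held 64.0 and 104 normalized counts of Cebpa in Ncoa6-KO against 16.6 and 28.9 in Ncoa6-sufficient BMDMs (1.86, SE 0.306, adjusted p = 0.0107), the only knockout call in this list. It was lost without Ncoa6-sufficient LPS + MSU replicate 1 (1.51, adjusted p = 0.126) or Ncoa6-KO LPS + MSU replicate 2 (1.48, adjusted p = 0.103), and with only the 4 libraries compared (1.87, adjusted p = 0.0861).

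For each member the genes of the most similar pattern were taken as those with the smallest root-mean-square difference in centred log2 CPM over the 8 libraries, among the 11219 genes that averaged 50 normalized counts or more. For Csf1 these were Nox1 (0.146), Il15 (0.152) and Slc2a6 (0.185), and for Csf3 Hcar2 (0.304), Ifnb1 (0.313) and Sele (0.329). For Csf2 they were Bmp1 (0.355), Jdp2 (0.361) and Kcnh7 (0.364), and for Csf3r Pou2f2 (0.206), Lgals3bp (0.210) and Bcl3 (0.214). The nearest patterns to Csf1r were Rsl1, Mepce and Nup37 (0.0628 to 0.0706), and those to Csf2ra were Dmtf1, Dusp11 and Yrdc (0.0544 to 0.0566). Csf2rb stood closest to Bsg, Frmd8 and Ctss (0.0516 to 0.0614) and Csf2rb2 to Susd1, Pigx and Pcyt1a (0.0477 to 0.0682). All distances share the same 8 libraries and scaling, so they describe likeness in these libraries only. Members that changed little have many near neighbours by construction of the measure.

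Of the remaining marker lists, the endothelial one rose as a whole. The 3 endothelial markers, led by Kdr, summed to 531 to 710 normalized counts in Ncoa6-sufficient and 364 to 377 in Ncoa6-KO medium libraries. With LPS + MSU they summed to 6532 to 6926 in Ncoa6-sufficient and 3056 to 5465 in Ncoa6-KO libraries. All 3 were called higher with LPS + MSU in each genotype, where 24.7% and 25.2% of all genes were. The 4 dendritic cell markers summed to 11.2 to 16.7 with medium and 132 to 206 with LPS + MSU, and of these Ccr7 and Flt3 passed the filter through stimulated libraries alone or almost so. Of the other 2, 1 was called higher in each genotype. The 5 stromal markers summed to 131 and 446 in Ncoa6-KO and 419 and 372 in Ncoa6-sufficient medium libraries, with 1 called higher with LPS + MSU in each genotype. Of the macrophage markers 3 were called higher and 1 lower with LPS + MSU in each genotype, where 30.5% and 27.9% of all genes were called lower. In each knockout comparison 2 of 7 were called lower, where 1.3% of all genes were with medium and 1.63% with LPS + MSU. These were Lyz2, the Cre locus, in both, with Cd14 in medium and Itgam with LPS + MSU. Cd14 and Itgam were not followed through the alternatives. None of the neutrophil, stromal, endothelial, dendritic or B cell markers was called in a knockout comparison, where 1.88% and 3.59% of all genes were. The B cell list had 1 gene tested, Cd79a, which reached the summed count through its medium libraries, with 1 and 4 counts in Ncoa6-sufficient and 7 and 8 in Ncoa6-KO libraries, and its call with LPS + MSU is not counted.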

How the data were processed

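RNA sequencing libraries (TruSeq Stranded mRNA, paired-end) were aligned and quantified by the authors with STAR 2.7.3a and RSEM 1.3.3 against GRCm38, giving the deposited table of expected counts per gene, with no normalization. Expected counts were rounded to whole numbers. RSEM divides reads shared by similar transcripts by estimate, which bears on Csf2rb and Csf2rb2. Genes were named from the reference tables, 50295 of 50615 IDs having a symbol, and placed with GENCODE annotation of GRCm38, with 50374 having a merged exon length.

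Genes with a summed count under 10 were left out, the study's own filter. The 4 groups were fitted together with edgeR 4.0.16 (R 4.3.3; TMM, quasi-likelihood test, two-sided) and p-values adjusted by Benjamini-Hochberg over 17625 genes, with calls at an adjusted p under 0.05. SEs follow from the fold change and F statistic, and 95% intervals use the fit's prior and residual degrees of freedom. The study used DESeq2, here an alternative (1.42.0), as was limma-voom (3.58.1). An exact permutation test of 2 against 2 libraries cannot go below p = 0.333. Coding sequences were aligned with Biopython. With n = 2 per group, edgeR's p-values rest on a spread pooled over the 4 groups and moderated across genes. That spread has 4 residual and 6.77 prior degrees of freedom, and is not that of the 2 mice in a group alone.

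The other alternatives were DESeq2's size factors in edgeR, no filter, filterByExpr, a replicate block, only the 4 libraries compared, Csf2rb and Csf2rb2 summed, each library left out and, added after the data were seen, library totals alone. On simulated counts for 17119 genes edgeR recovered 90% of 100 log2 changes of 1 in the medium comparison and 85% in the stimulated one. With these and 100 log2 changes of 2, it also made 23 false calls in the medium comparison and 11 in the stimulated one. The changed genes were drawn only from those that averaged 50 normalized counts or more, and recovery was not split by count level. It therefore cannot be read as the power for genes with few counts, such as Csf2, which were not among them. The members and gene lists were chosen with earlier results of these data known. A gene of the signalling list is not reported here and was left out of its counts. Genes named beyond the members are Il34, Il3, every listed pathway gene called in a knockout comparison, the 3 of each list with the largest stimulus effect in Ncoa6-sufficient BMDMs among those called, and the 3 nearest genes to each member. Il5, Il5ra, Flt3, Ccr7, Cd79a, Kdr, Cd14 and Itgam were named after their values were seen.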

Additional observations from a re-analysis of the deposited data

How the results depend on the processing

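Members called in the stimulus comparisons numbered 7 without the knockout (5 to 7 over the 17 alternatives) and 6 with it (6 to 7). In the knockout comparison with medium the count of 0 became 1, Csf3r, with no filter on low counts and with a replicate block across all groups or within each genotype, and was 0 to 1 when each library was left out. With LPS + MSU the count of 1 became 2 with DESeq2's size factors, DESeq2, no filter and the block across all groups, 3 with the block within each genotype and 0 with only the 4 libraries compared, and was 0 to 2 when each library was left out. The interaction count of 0 became 1, Csf1, with no filter and with the block within each genotype. The cause of these differences was not tested, except that a fit to 4 libraries has fewer samples.

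The labels do not say whether a replicate number marks the same mouse or batch in different groups. Deviations from group means correlated at 0.31 (Ncoa6-sufficient) and 0.369 (Ncoa6-KO) between the conditions of a genotype and at 0.0523 to 0.199 between genotypes. With the block within each genotype, whose knockout effects compare the libraries numbered 1, Csf3r was -0.38 (adjusted p = 0.0164) with medium and -0.69 (1.21e-05) with LPS + MSU, Csf1 with LPS + MSU 0.42 (0.00218) and its interaction 0.59 (0.00265), 1 of 444 genes whose interaction passed. With the block across all groups Csf3r was -0.67 (0.0145) and -1.0 (0.000478), and 86 interactions passed. Csf1r in Ncoa6-KO BMDMs, -0.27 with LPS + MSU over medium, passed with the block within each genotype (0.00186) and across all groups (0.0362).

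Some values changed sign. Csf2ra with LPS + MSU, 0.00 between genotypes, was -0.037 with DESeq2's size factors and with DESeq2, -0.00038 with the block within each genotype and -0.070 to 0.047 with each library left out. The knockout value of Csf2rb with LPS + MSU was 0.012 with library totals alone and -0.18 to 0.045 with each library left out, and with medium -0.30 to 0.0081. The knockout value of Csf2rb2 with LPS + MSU was 0.021 with library totals alone, 0.0075 with the block within each genotype and -0.18 to 0.066 with each library left out, and with medium -0.41 to 0.053. The stimulus effect on Csf2rb2 in Ncoa6-sufficient BMDMs was 0.090 with DESeq2's size factors and with DESeq2, 0.016 with filterByExpr, 0.016 with only the 4 libraries compared and -0.10 to 0.14 with each library left out. In Ncoa6-KO BMDMs it was -0.54 with library totals alone, a call, and -0.12 to 0.34 with each library left out. The stimulus effects on Csf2rb, called at 0.50 and 0.58, were -0.17 and -0.054 with library totals alone, with no call. The Csf3r interaction ranged from -0.77 to 0.14 and Timp3 in stimulated Ncoa6-KO BMDMs from -0.11 to 1.12 with each library left out, the latter being -0.21 with library totals alone. Of the other values 549 kept direction and side of the threshold in settings that kept all libraries, 16 gained and 15 lost the call. The 2 libraries per group limit every knockout statement, and counts under 50 limit Csf2, Il34 and Timp3.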
